A study of Bombus terrestris audax with 20 samples.

Results

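The longest annotated genes of the bumblebee Bombus terrestris audax were described across larval castes and stages: the genes whose annotated span on the genome, introns included, was at least 100 kb (end minus start of at least 100000 bases in the identifier of the deposited table, build Bter_1.0). There were 388 such genes among 10005 annotated genes and 14817 features in all, the remainder being unannotated transcripts. The data were mRNA-seq values from pooled whole female larvae in 17 libraries of 6 phenotypes. Early-instar larvae of the first and second instars were queen-destined (EQ, 3 libraries) or worker-destined (EW, 3), mid-instar larvae of the third instar were MQ (3) or MW (2), and late-instar larvae of the fourth instar were LQ (3) or LW (3). Colonies that reared the queen-destined larvae had no queen, whereas those of the worker-destined larvae had one, so caste and the presence of the queen cannot be told apart. Each library was a pool of larvae from a single colony, and p-values measure the spread between these libraries. In whole bodies, fewer cells of a type and less RNA per cell cannot be told apart.

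In insects a gene spans this much of the genome mainly because of long introns, which are removed from the mature messenger RNA. Such genes often encode regulators of development, adhesion and guidance proteins of the nervous system, ion channels, and large muscle proteins. Their transcription takes long, and an abundance divided by the whole span is low compared with one divided by the exons alone. Of the 388 long genes, 77 had a symbol that could be read in the study's supplement, 60 of these with an informative product name. The readable part is the top of a list ranked by EQ over EW with an offset of 20, which also takes in genes that are low in both. The named genes were therefore not a random draw, and a named gene with higher values in EQ than in EW was partly named for that. The other genes are given by their coordinates on the sequences of Bter_1.0.

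The long genes were spread over 18 of the chromosome-level sequences (359 genes, 5 to 33 on each) and 17 scaffolds (29 genes). Their span had a median of 163442 bases and reached 674836 bases; 143 spanned at least 200 kb and 28 at least 400 kb. The longest genes had low deposited abundances. The abundance is the authors' length-corrected, quantile-normalised value and has no absolute unit. Its mean over the 17 libraries had a median of 4.64 in the long genes, with the middle 50% between 1.61 and 10.5, against 133 in annotated genes under 100 kb. A mean under 5 was found in 200 long genes (51.5%) and in 3.99% of the shorter annotated genes, and a mean under 2 in 113 (29.1%) and 1.41%. Of the long genes, 50 had a mean of at least 20 and 9 a mean of at least 100. The fall with span ran through the whole annotation: the median of the gene means was 228 for spans of 1 to 3 kb, 60.8 for 10 to 30 kb, 18.2 for 30 to 100 kb and 5.22 for 100 to 200 kb. Multiplied by the span, the same medians were 438, 971, 912 and 734 and did not fall in this way. At the limit, the genes just outside were NC_015771.1:6549252-6648079 (span 98827 bases, mean abundance 10.4) and NC_015768.1:11464883-11564502 (99619 bases, 5.43), and those just inside were NC_015770.1:14511326-14611449 (100123 bases, 12.2) and NC_015768.1:2473237-2574256 (101019 bases, 17.2).

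**Figure D1:**
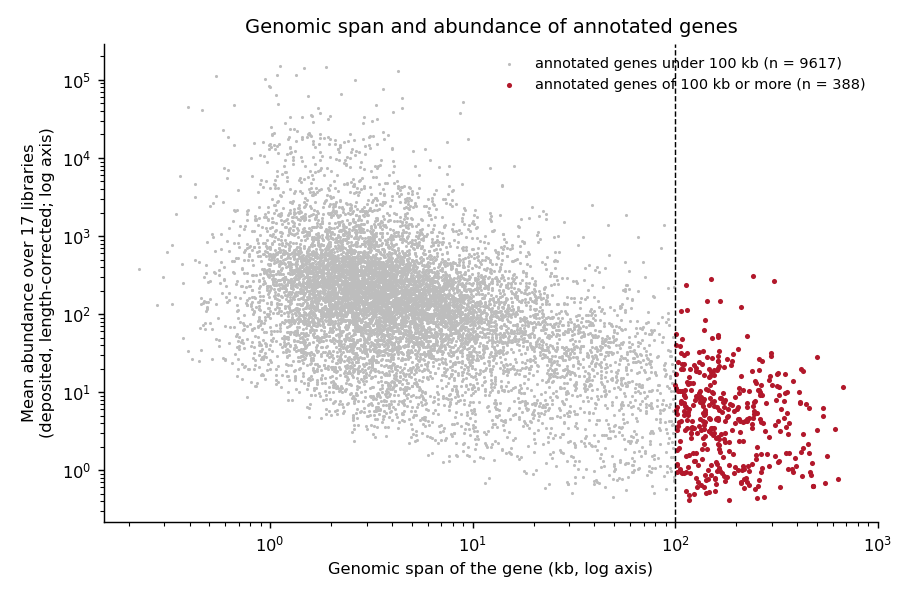
Mean deposited abundance over the 17 libraries (y, log axis) against genomic span in kb (x, log axis) for all annotated genes, each point a gene; red points are the 388 genes of 100 kb or more. Abundance falls with span, and 338 of the 388 long genes lie below a mean of 20.

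The low values did not form a continuum. In every library the lowest values above 0 lay in separate bands, here called steps and numbered from the lowest, and within a band the values fell with the row of the table. In LQ1 the 383 features on step 1 ran from 2.42 at the top of the table down to 0.145, with a Spearman's rho of -0.98 between value and row, given as a description. Steps 1 to 5 were read in each library, and at most 18.4% of the features on steps 1 and 2 lay between bands. Of the long genes, 39 lay on step 1 in all 17 libraries, 88 on step 1 or 2 in all, and 93 above step 5 in all. In the early libraries 54 to 70 long genes lay on step 1, in the mid libraries 77 to 84, and in the late libraries 109 to 123 apart from LW1, which had 83. The only value of 0 among 6596 was in LQ2.

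The value that a step stood for differed between stages. The mean of step 1 was 0.418 to 0.493 in the 6 early libraries, 0.521 to 0.719 in the mid libraries and 1.14 to 1.61 in LQ1, LQ2, LQ4, LW2 and LW3. Step 2 stood at 0.849 to 1.18, 1.27 to 1.73 and 3.10 to 4.25 in the same order, and step 5 at 2.63 to 3.71, 3.71 to 5.16 and 8.74 to 11.1. LW1 stood apart from the other late libraries, with 0.472 for step 1, 1.22 for step 2 and 4.05 for step 5. Its step 1 lay within the early range, its step 2 between the early and mid ranges and its step 5 within the mid range. It also had 11 features listed at 0, against 90 to 153 in the other late libraries. A step thus stood for a higher mean value in the late libraries other than LW1 than in the mid libraries, and steps 1 and 2 stood for a lower one in LW1. Whether the change in a low long gene is separate from the position of the steps was not tested, and both are given side by side.

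**Figure D2:**
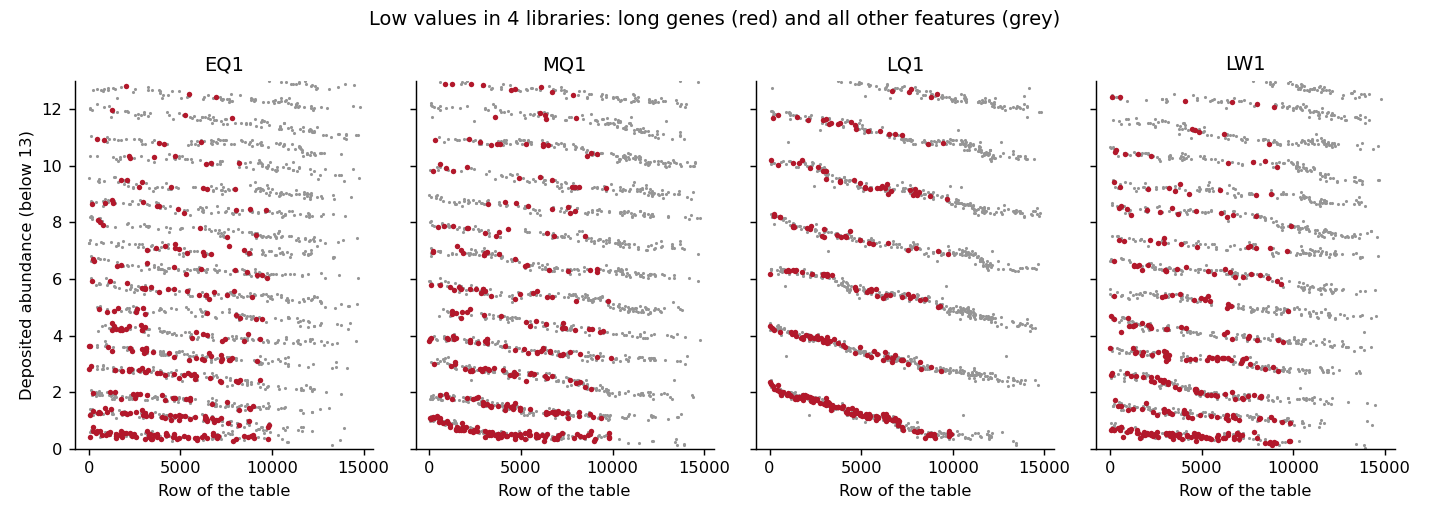
Deposited abundance below 13 (y) against the row of the table (x) in libraries EQ1, MQ1, LQ1 and LW1; red points are the long genes and grey points all other features. The values lie in bands that slope down the table and are further apart in LQ1, where step 2 has a mean of 3.32, than in EQ1 (1.06), MQ1 (1.44) and LW1 (1.22).

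Reads of other genes may also lie within these spans. Another annotated gene lay wholly inside the span of 86 long genes (22.2%), up to 11 of them in the same long gene, and 270 long genes overlapped no other feature of the table. Among the 50 long genes with a mean of at least 20, 22 (44.0%) held another gene. Abundance times span in kb, taken as a measure of the signal a gene holds, was at least as large in the genes inside as 50% of that of the long gene in 29 cases and exceeded it in 17. This share is given below for long genes whose difference is described. Since it exceeded the whole in 17 cases, it compares sizes and is not a fraction of the reads of the long gene. Where a gene is said below to hold a share of the signal, this comparison is meant. There were 9 pairs of long genes that overlapped each other, 6 of them with 1 gene wholly inside the other. The deposited values do not show how reads in a shared stretch were divided.

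A muscle protein had the highest abundance among the named long genes. Titin (LOC100643650, NC_015768.1:15583961-15728456), the giant elastic protein of the sarcomere, was at rank 5 of the 388 with a mean of 146 and overlapped no other feature. It was at 213, 199.7 and 178 in EQ, 167, 148 and 137 in EW, 128, 228 and 140.3 in MQ, 180.4 and 115 in MW, 139.7, 99.8 and 123 in LQ, and 131, 85.1 and 70.7 in LW. Its lowest EQ value exceeded its highest EW value, which bears on its being named, and the other pairs of groups compared here overlapped. No comparison of titin passed limma with all libraries. Its largest change was -0.64 ± 0.29 (SE) on the log2 scale from MW to LW (adjusted p = 0.118, and 0.0255 without LW1). Dystrophin (LOC100642674), which ties the cytoskeleton to the muscle membrane, was level: its lowest, median and highest library values were 5.40, 6.89 and 9.21, and no comparison passed the test. In LQ it nevertheless lay on steps 3 and 4 and in all mid libraries above step 5. The muscle-specific form of the nascent polypeptide-associated complex subunit alpha (LOC100649594), a ribosome-associated chaperone, was low, at 1.28, 1.07 and 1.55 in MQ and 0.472 and 0.319 in MW. The MQ libraries lay on step 2 and the MW libraries on step 1, a difference of 1.50 ± 0.34 with offset 0.1 (adjusted p = 0.0223) that did not pass with offset 20 (adjusted p = 0.185) or without MW3 (adjusted p = 0.171).

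The offset is the constant added before taking log2. An offset of 0.1 keeps the differences of low genes visible, while an offset of 20, which the study used, compresses them. All fold changes below are log2 differences ± SE with offset 0.1 unless offset 20 is named, and adjusted p-values are over all 14817 features.

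Of the 3 named hormone and nuclear receptors, 1 was called between castes in late larvae, where 3.79% of all features were called, 1.46% lower in LQ. Hormone receptor 4-like (LOC100643387, NW_003565438.1:179683-325997), which in Drosophila belongs to the cascade of genes switched on by the moulting hormone ecdysone, was at 5.38, 4.94 and 5.43 in EQ, 3.22, 2.49 and 4.66 in EW, 4.23, 2.95 and 4.99 in MQ and 2.77 and 3.12 in MW. In LQ it was at 0.503, 0.448 and 0.925 and in LW at 2.89, 2.71 and 3.06. The LQ libraries lay below every other library and were all on step 1, while LW2 and LW3 were on step 2 and LW1 on step 4. The LQ values were also below the means of step 1 in LQ1, LQ2 and LQ4 (1.25, 1.14 and 1.61). Within a step the value follows the row of the table, and its part in the differences below was not tested. From MQ to LQ it fell by 2.55 ± 0.30 on the log2 scale (adjusted p = 3.63e-05), and LQ was below LW by a log2 difference of -2.10 ± 0.30 (adjusted p = 0.00242), whereas MW and LW differed by -0.03 ± 0.33 (adjusted p = 0.966). With offset 20 the calls remained (adjusted p = 0.000758 and 0.0477), and both passed with each library left out in turn. A 1402-base gene inside its span was at 18.9, 36.8 and 25.6 in LQ and 30.7, 119 and 165 in LW. Its abundance times span was 26.6% to 78.9% of that of the receptor gene in LQ and 10.2% to 51.8% in LW.

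Ecdysone-induced protein 78C (LOC100646780), another nuclear receptor of that cascade in Drosophila, was at 1.56, 1.46 and 3.10 in MQ and 0.538 and 0.541 in MW. MQ was higher by 1.66 ± 0.39 with offset 0.1 (adjusted p = 0.0239), on steps 2 and 3 against step 1, and not past the threshold with offset 20 (adjusted p = 0.104) or without MW2 (adjusted p = 0.15). Its rise from MW to LW (1.33 ± 0.39, adjusted p = 0.0257, and 0.126 without MW2) placed LW2 and LW3 on step 1 and LW1 on step 2, against step 1 in MW. The insulin-like peptide receptor (LOC100650952), which couples nutrition to growth, was between 3.90 and 7.04 in all libraries with a median of 4.85, and passed no test. It lay above step 5 in all early libraries, on steps 4 and 5 in mid libraries and on steps 2 and 3 in LQ.

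Among the 10 named transcription factors, 7 were called higher from MQ to LQ and none lower, with a median change of 0.92. The median was -0.02 over all features, of which 20.4% were called higher. It was 0.50 in all 388 long genes, of which 159 were called higher, and 0.93 in the 249 features with a mean under 2. Means of the factors ran from 0.592 to 10.6. With offset 20, 4 of the factors passed. Class A basic helix-loop-helix protein 15-like (LOC100646539), whose mammalian relative acts in secretory cells, was at 8.67, 10.6 and 7.62 in MQ and at 14.7, 22.9 and 19.3 in LQ, without overlap, a rise of 1.06 ± 0.24 (adjusted p = 0.00416; offset 20, adjusted p = 0.00183). In LW it was at 9.23, 16.0 and 14.6 against 7.45 and 10.7 in MW and did not pass (0.53 ± 0.27, adjusted p = 0.173, and 0.0334 without LW1). The CLOCK homologue (circadian locomoter output cycles protein kaput, LOC100648067), the activator of the daily clock, was at 10.7, 8.45 and 13.0 in MQ and 16.2, 18.4 and 17.0 in LQ, and at 7.37 and 8.29 in MW and 11.1, 12.2 and 14.3 in LW. Late larvae lay above mid larvae in both castes, by 0.70 ± 0.18 (adjusted p = 0.00788) and 0.67 ± 0.20 (adjusted p = 0.0281); the latter had an adjusted p of 0.064 with colony as a block and 0.175 without MW2. LQ also lay above LW without overlap, at an adjusted p of 0.164. Both genes were above step 5 in all 17 libraries. Step 5 itself was at 3.98 to 5.16 in MQ and 8.74 to 11.1 in LQ.

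AF4/FMR2 family member 4 (LOC100648085), a scaffold of transcription elongation complexes, rose from 3.96 ± 0.60 (SD, n = 3) in MQ to 7.21 ± 0.79 (n = 3) in LQ (0.85 ± 0.22, adjusted p = 0.00774), while it lay on step 4 in MQ and steps 3 and 4 in LQ. Sox-2 (LOC100643013), a factor of neural progenitors in vertebrates, lay on step 2 in all 6 libraries and had values of 1.29, 1.30 and 1.72 in MQ and 3.31, 3.25 and 4.06 in LQ (adjusted p = 0.0154, and 0.0506 without LQ4). Grainyhead (LOC100643801), a regulator of the epidermal barrier in Drosophila, stayed between 1.55 and 3.82 and passed no test. Of the 7 factors called higher, 3 held the same step in all MQ and LQ libraries, 2 had overlapping steps and 2 were above step 5.

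The named adhesion and guidance proteins and the named channels and receptors of the nervous system lay at the bottom of the scale. Of the 60 named long genes, 6 had a mean of at least 5, against 188 of all 388. The low position of these genes is therefore tied to which genes could be named, and is not shown for their classes as a whole. All 12 named adhesion and guidance genes and all 11 channel and receptor genes were on step 1 or 2 in all 17 libraries, 7 of each on step 1 throughout. Their means ran from 0.618 to 1.54 and from 0.540 to 1.46. Slit (LOC100645051, NC_015769.1:8528010-9163847), a secreted repellent of growing axons and the longest of the named genes, was at 0.462, 0.448 and 0.757 in MQ and 1.32, 1.28 and 1.73 in LQ. Every one of its 17 values was on step 1. Its higher value in LQ (1.25 ± 0.35, adjusted p = 0.0131) did not pass with offset 20 (adjusted p = 0.0815). Dscam2 (LOC100643520), a cell surface protein of neuronal wiring, was higher in LQ by 1.44 ± 0.39 and a neuroligin (LOC100649027), an adhesion protein of synapses, by 1.15 ± 0.31. From MQ to LQ, where 20.4% of all features were called higher, 11 of the 12 adhesion genes were (median 1.28). Of these 11, 9 kept the same step in all 6 libraries. Low long genes moved the same way: of all 113 with a mean under 2, 65 were called higher, with a median of 1.11. Of the 11 channel and receptor genes, 8 were called higher (median 1.17), all 8 on the same step, among them subunits of the kainate (LOC100651036) and NMDA (LOC100643486) types of glutamate receptor. With offset 20, 4 of the adhesion genes and 3 of the channel and receptor genes passed (20.5% of all features were called higher). Of the 113 long genes with a mean under 2, 27 did. From MW to LW, where steps 1 and 2 of LW1 had lower means than in any mid library, the counts with offset 0.1 were 0 of 12 and 1 of 11 (14.3% of all features were called higher).

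Of 7 genes of the extracellular matrix and heparan sulfate, 5 were called higher from MQ to LQ on an unchanged step and 2 passed with offset 20. In this comparison 20.4% of all features were called higher, and 65 of the 113 long genes with a mean under 2. Agrin-like (LOC100642737), an organiser of synapses in vertebrates, was among the 5. Of 5 signalling genes all 5 were called higher, 3 of them also with offset 20. On an unchanged step were 4, including both rhomboid proteases (LOC100650070 and LOC100646794), which in Drosophila release growth factor ligands. The remaining one, tetraspanin-5 (LOC100645644), a membrane organiser, was at 1.46, 1.08 and 1.71 in MQ and 9.40, 9.00 and 4.61 in LQ, on step 2 in MQ and steps 2 and 5 in LQ. The gene inside its span was at 14.9 in MQ and 201 in LQ and held 37.3% of its signal over the 17 libraries. CUGBP Elav-like family member 2 (LOC100644765), a regulator of splicing, was higher in queen-destined larvae at every stage without overlap, where the early difference is part of why it was named: 1.79, 1.28 and 1.58 in EQ against 1.07, 1.19 and 1.16 in EW, 2.59, 2.07 and 4.06 in MQ against 1.43 and 1.40 in MW, and 5.71, 7.08 and 6.95 in LQ against 2.13, 3.39 and 4.16 in LW. The caste differences of 0.40 ± 0.29, 0.93 ± 0.32 and 1.05 ± 0.29 had adjusted p-values of 0.891, 0.0958 and 0.0625. The mid difference had 0.0487 without LW1. The late one passed with offset 20 (adjusted p = 0.0162) and had 0.146 with offset 0.1 without LW1. Protein cortex (LOC100652120), a meiotic regulator in Drosophila and chosen after its values were seen, was on step 1 in all early and mid libraries, between 0.453 and 0.762, and on steps 1, 4 and 2 in LQ1, LQ2 and LQ4, at 1.65, 7.36 and 4.94.

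The change from mid to late queen-destined larvae had the most calls among the long genes in the 7 comparisons. From MQ to LQ, 159 long genes were called higher and 16 lower, 45.1% of the 388, where 39.7% of all features were called (20.4% higher and 19.3% lower). The median change of the long genes was 0.50, against -0.02 over all features. With offset 0.1 the size of the change followed the level: the median was 1.11 in the 113 long genes with a mean under 2, 0.47 in the 87 between 2 and 5, 0.27 in the 188 with a mean of at least 5 and 0.22 in the 50 of at least 20. All 249 features with a mean under 2 had a median of 0.93. With offset 20 the order was reversed, at 0.06, 0.08, 0.12 and 0.13, and 27 of the 113 and 79 of the 188 were called. Of the 159 called higher, 59 were on the same step in all 6 libraries, 53 had overlapping steps, 36 were above step 5 in all 6, and 5 were on a higher step in all LQ than in all MQ libraries. A further 6 were called higher in value although all LQ libraries were on a lower step than all MQ libraries. Counting calls aside, 100 long genes had all LQ libraries on a lower step than all MQ libraries, and 48 of them had the higher fitted value in LQ. This was not counted over all features, so no share is set beside it. Of the 16 called lower, 10 were on a lower step and 6 above step 5 in all libraries. With offset 20 the counts were 125 higher and 13 lower (20.5% and 18.6% of all features), together 35.6% of the long genes against 39.1% of all features. The share of the long genes was thus above that of all features with offset 0.1 and below it with offset 20. It was also below with a mean of at least 5 (35.1% against 39.5%) and with colony as a block (40.7% against 41.0%). The total of 175 calls with offset 0.1 was 103 without LQ4 (26.5% against 32.1%), 113 without MQ2 (29.1% against 36.4%) and 114 without MQ1 (29.4% against 31.5%). Without LQ1 it was 126 (32.5% against 33.1%). Leaving out any other single library kept the share above that of all features, as without LQ2 (38.4% against 35.5%) or MQ4 (39.9% against 33.7%).

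**Figure D3:**
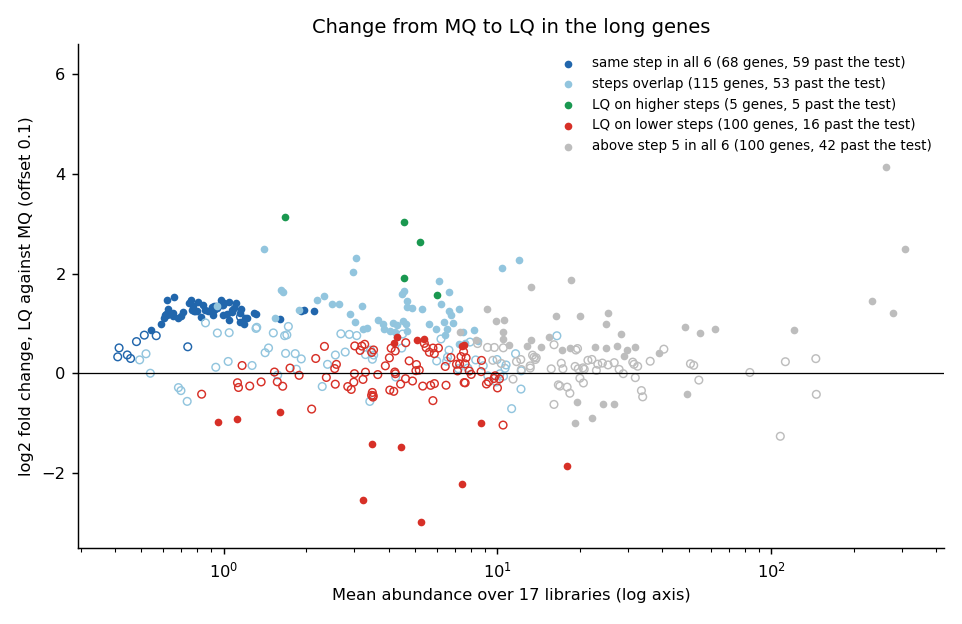
log2 fold change from MQ to LQ with offset 0.1 (y) against mean abundance (x, log axis) for the 388 long genes, coloured by the steps of the 3 MQ and 3 LQ libraries; filled points passed limma at an adjusted p under 0.05 and open points did not. The 68 genes on the same step in all 6 libraries lie in a band at a low mean, and 59 of them passed, while the genes on lower steps in LQ lie on both sides of 0.

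Of the genes above the low steps, gene A (NC_015768.1:10639055-10946210, no other feature overlapping it) had the largest rise. It was at 7.04, 8.58 and 6.81 in EQ, 4.84, 7.23 and 9.51 in EW, 73.0, 18.2 and 90.6 in MQ, 103 and 182 in MW, 722, 976 and 922 in LQ and 228, 689 and 424 in LW. Each stage lay above the one before it in both castes without overlap. From EQ to MQ it rose 8.11-fold (2.72 ± 0.52, adjusted p = 0.00459; 0.0532 with colony as a block) and from MQ to LQ 14.4-fold (4.13 ± 0.52, adjusted p = 7.06e-05). From EW to MW it rose 19.8-fold (4.28 ± 0.59, adjusted p = 0.00167), and the further rise to LW was 3.14-fold (1.57 ± 0.59, adjusted p = 0.0674; offset 20, adjusted p = 0.0277). Another gene without overlapping features, NC_015767.1:447119-560734, was at rank 4 by mean and had a different course. It was at 163, 91.9 and 133 in MQ and 309.7, 390.1 and 338 in LQ (1.45 ± 0.31, adjusted p = 0.00252), at 142 and 169 in MW and 299.7, 317 and 346 in LW (1.05 ± 0.35, adjusted p = 0.0411, and 0.208 without MW2), and at 150.3 to 341 in EQ.

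Gene D (NC_015770.1:2976950-3079056) rose on the steps as well as in value. It was at 1.51, 2.00 and 3.12 in MQ and 1.24 and 2.50 in MW, on steps 2 and 3, and at 9.50, 13.8 and 19.0 in LQ and 5.24, 10.8 and 10.9 in LW, on step 5 or above. The changes were 2.62 ± 0.40 (adjusted p = 0.00025) and 2.21 ± 0.44 (adjusted p = 0.00436), and both passed with offset 20. Without MW2 the latter had an adjusted p of 0.0681. Genes E and F fell against the upward course of the steps. Gene E (NC_015773.1:9553641-9694233) was above step 5 at 8.48, 7.58 and 10.8 in MQ and on step 1 at 1.03, 0.972 and 1.08 in LQ, 8.68-fold lower (adjusted p = 7.43e-05); in LW it was at 3.90, 1.10 and 3.75, which overlapped MW at 3.87 and 6.30. Gene F (NC_015773.1:11648645-11800800) was at 10.8, 14.0 and 12.0 in MQ and 1.13, 3.37 and 4.25 in LQ, 4.20-fold lower (adjusted p = 0.00278). It was also lower in LW, at 4.04, 1.10 and 1.22 against 6.34 and 9.36 in MW (3.70-fold, adjusted p = 0.0154, and 0.114 without MW3). No other feature overlapped genes D, E and F.

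From MW to LW, 38 long genes were called higher and 11 lower (12.6%, against 24.6% of all features, 14.3% higher and 10.2% lower). Without LW1 the count rose from 49 to 156, of which 142 were higher (40.2%, now above the 33.8% of all features), and the median change of the long genes from 0.27 to 0.44. Leaving out LW2 gave 21 calls (5.41%, against 16.0% of all features) and leaving out LW3 gave 20 (5.15%, against 12.4%). Leaving out MW2 or MW3 left 1 MW library, whose spread was taken from the other groups. Of the 38 called higher, 34 were also called higher from MQ to LQ, and of the 11 called lower, 6 were; none was called in opposite directions. The share of the summed abundance of all features that fell to the long genes was 0.0362% to 0.0459% in the early and mid libraries, 0.0654% to 0.0737% in LQ, 0.0556% and 0.0563% in LW2 and LW3 and 0.0412% in LW1. Without the 4 long genes of highest mean it was 0.0411% to 0.0454% in LQ and 0.0327% to 0.0380% in the early and mid libraries, while LW1 had 0.0307%, LW2 0.0386% and LW3 0.0406%.

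Between early and mid larvae few long genes were called by limma. From EQ to MQ, 13 were called higher and 7 lower (5.15%, against 16.9% of all features, 10.3% higher and 6.61% lower). With colony as a block 7 were called (1.8%, against 4.7%). The 20 calls were 8 without EQ3 (2.06%, against 6.58% of all features) and 11 without MQ4 (2.84%, against 7.38%). They were 13 without MQ1 (3.35%, against 11.4%) and 49 without LW1 (12.6%, against 21.3%). From EW to MW, 4 were called higher and none lower (1.03%, against 2.91%, 1.85% higher and 1.06% lower), with 6 calls with offset 20 (3.66% of all features). At an unadjusted limma p under 0.05 were 33 of the 388 long genes and 2236 of the 14817 features. There were 2 calls without EW2 (0.515%, against 1.11% of all features) and 13 without LW1 (3.35%, against 4.45%). Leaving out MW2 or MW3 left 1 MW library. Gene C (NW_003566135.1:1472513-1742642, no overlapping feature) had the smallest adjusted p of these. It was at 4.61, 4.98 and 3.92 in EQ and 35.7, 31.2 and 33.3 in MQ, and at 6.11, 8.35 and 7.02 in EW and 46.0 and 37.3 in MW. It rose 7.43-fold in queen-destined larvae (2.87 ± 0.22, adjusted p = 2.03e-05) and 5.81-fold in worker-destined larvae (2.53 ± 0.25, adjusted p = 0.000224), and in late larvae it stayed between 25.5 and 50.4. All its values were above step 5. Gene NC_015768.1:16469672-16624980 went the other way in queen-destined larvae, from 34.3, 22.6 and 27.3 in EQ to 10.7, 7.62 and 4.20 in MQ (3.73-fold lower, adjusted p = 0.00962, and 0.0508 without MQ4), and in worker-destined larvae EW (15.6, 13.7 and 37.5) overlapped MW (9.16 and 16.0).

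**Figure D4:**
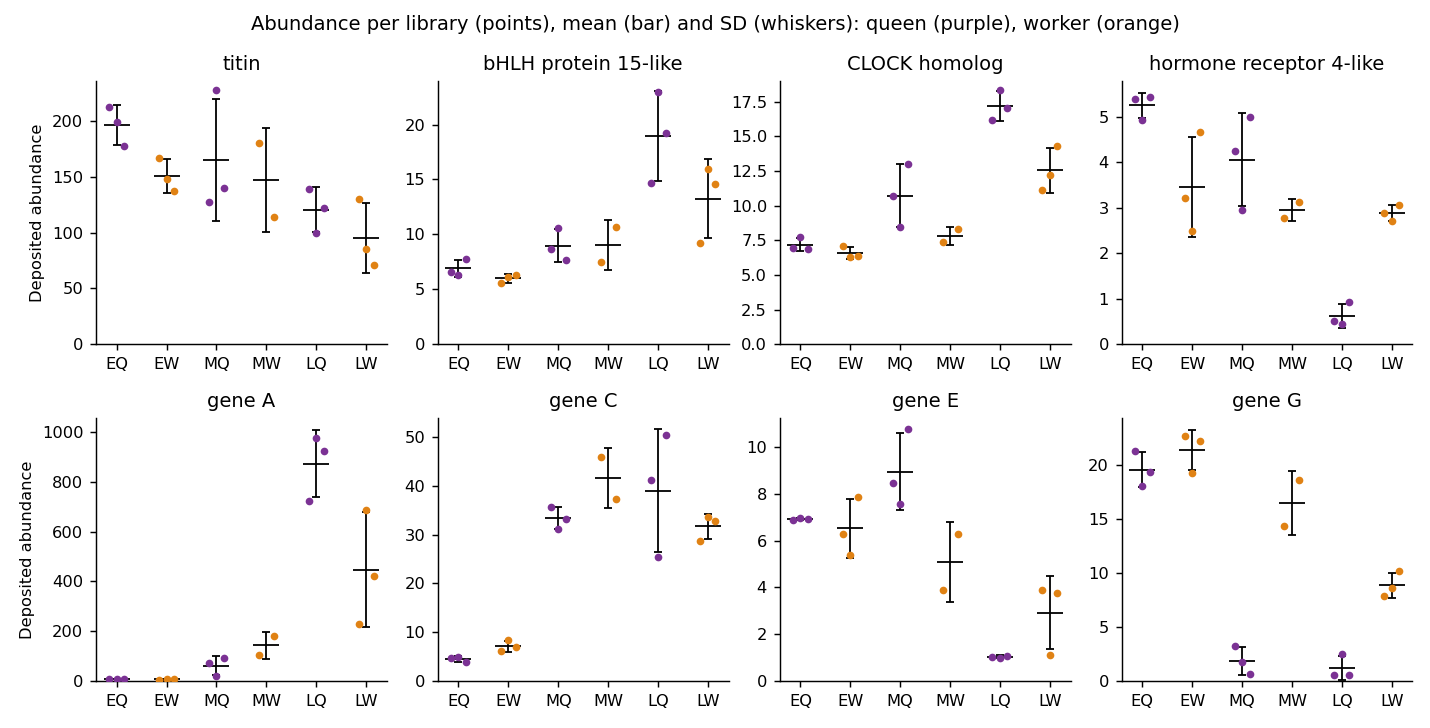
Deposited abundance (y, starting at 0) of 8 long genes in the 17 libraries by phenotype (x); points are libraries, horizontal bars means and whiskers SD. Genes A and C rise from early to mid larvae in both castes, hormone receptor 4-like and gene E are low in all 3 LQ libraries, gene G is low in all MQ and LQ libraries, and titin overlaps between most groups.

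Caste differences called by limma were few in the long genes. Between EQ and EW none passed limma (0.0202% of all features did, 0.00675% higher and 0.0135% lower in EQ), and none with offset 20 (0.00675% of all features). At an unadjusted limma p under 0.05 were 3 of the 388 long genes and 762 of the 14817 features. Between MQ and MW, 6 were higher and 5 lower in MQ (2.84%, against 7.34% of all features, 4.43% higher and 2.91% lower), and between LQ and LW, 8 were higher and 2 lower in LQ (2.58%, against 3.79%, 2.33% higher and 1.46% lower). The 11 calls in mid larvae were 4 without MQ4 (1.03%, against 2.15% of all features) and 7 without MQ1 (1.8%, against 4.01%). Without LW1 they were 19 (4.9%, against 9.72%). The mid calls rest on 2 MW libraries, and leaving out either left 1, with a spread taken from the other groups. The 10 calls in late larvae were 5 (1.29%) without LQ1 or LQ4, against 1.15% and 2.07% of all features. They were 6 (1.55%) without LW2, EQ2, EQ3 or EW1, against 1.74%, 2.88%, 2.99% and 2.69%. By the study's criterion of ranges that do not overlap between castes, 62 (16.0%, against 14.5% of all features), 119 (30.7%, against 42.5%) and 58 (14.9%, against 23.0%) long genes differed at the early, mid and late stages. In the late stage 52 of the 388 long genes were apart and higher in LQ, as were 13.3% of all features (1976 of 14817). Among those apart, 52 of the 58 long genes and 1976 of the 3408 features were higher in LQ. Without LW1, 101 long genes were apart, with 58 higher and 43 lower in LQ, a count not made over all features. The median difference of the long genes went from 0.30 to 0.06, against 0.03 and -0.01 over all features. In the early stage 50 of the 388 long genes were apart and higher in EW, as were 9.02% of all features (1337 of 14817). Among those apart, 50 of the 62 long genes and 1337 of the 2154 features were higher in EW. Of these 50 long genes, 13 were on the same step in all 6 libraries.

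Gene G (NW_003566591.1:9738-111099) had the largest difference among the long genes called between castes in mid and in late larvae. It was at 21.2, 18.0 and 19.3 in EQ and 22.6, 19.3 and 22.2 in EW, which overlapped. In MQ it was at 3.22, 1.79 and 0.630 against 14.4 and 18.6 in MW, and in LQ at 0.533, 2.49 and 0.544 against 7.88, 8.58 and 10.1 in LW, without overlap and with the steps in the same order. MQ was 8.75-fold below MW (adjusted p = 0.009) and LQ 7.46-fold below LW (adjusted p = 0.00858; 0.0214 without LW1). Without MW3 the mid difference had an adjusted p of 0.0825. The fall from EQ to MQ was 10.4-fold (adjusted p = 0.0012). The 2410-base gene inside its span was at 15.4, 20.7 and 12.7 in MQ and 65.3 and 116 in MW. It held 11.8% of the signal of gene G over all libraries. By library this was 11.3%, 27.5% and 47.8% in MQ and 10.8% and 14.9% in MW.

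Several other long genes called between castes held inner genes with at least as much signal as their own. Gene H (NW_003565557.1:1479481-1620256) was at 26.7, 27.9 and 15.7 in MQ and 54.9 and 333 in MW (8.29-fold lower, adjusted p = 0.0214, and 0.196 without MW3). The single gene inside it, of 3100 bases, held 112% of its signal over all libraries and was at 1330, 1474 and 609 in MQ and 2696 and 16075 in MW. Gene B (NC_015767.1:10428321-10672051), the long gene of highest mean (308), was at 792, 862 and 1112 in LQ and 231, 361 and 351 in LW (2.94-fold higher, adjusted p = 0.00459; 0.0175 without LW1). The 5 genes inside it together held 109% of its signal, and the largest of them had means of 42939 in LQ and 22217 in LW. Gene I (NC_015764.1:9993587-10182203) was at 26.4, 23.3 and 24.4 in LQ and 15.7, 11.3 and 7.00 in LW (2.18-fold higher, adjusted p = 0.0457, and 0.135 without LQ1), with 3 genes inside that held 127%. NC_015767.1:1018095-1228750, at 254 ± 42.7 (SD, n = 3) in LQ and 122 ± 11.6 (n = 3) in LW (adjusted p = 0.0137, and 0.0625 without LQ1), held genes with 116%. The part of these inner genes in the calls was not tested. Another gene lay inside 4 of the 6 long genes called higher and 3 of the 5 called lower in MQ, and inside 4 of the 8 called higher and both of those called lower in LQ. From MQ to LQ it did so in 30 of the 159 called higher and 6 of the 16 called lower.

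**Figure D5:**
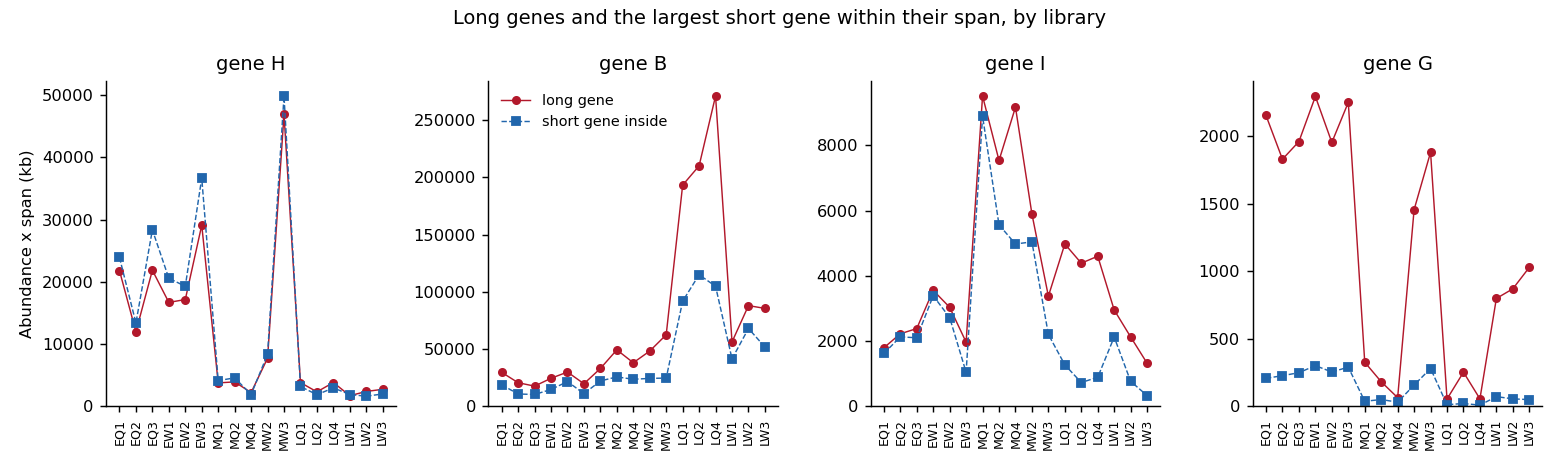
Abundance multiplied by span in kb (y) by library (x) for 4 long genes (red circles) and the gene with the largest such product inside each (blue squares). In gene H the inner gene follows the long gene in every library at 67.8% to 130% of its signal. In genes B, I and G the size of the inner gene relative to the long gene changes between libraries, at 38.7% to 77.3%, 16.6% to 95.8% and 4.82% to 47.8%.

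The 2 long genes called between LQ and LW that overlapped no other feature were above step 5 in all libraries of both groups, while the 4 called between MQ and MW that overlapped none had their steps apart. Of the late calls with no gene inside, 3 are given here, chosen after their values were seen. NW_003566384.1:284665-399247, which overlapped 1 other feature in part, was at 133, 125 and 125 in LQ and 87.2, 84.3 and 89.0 in LW. The groups were apart, at 0.55 ± 0.10 (SE) on the log2 scale (adjusted p = 0.01), and the gene passed with each library left out in turn. NC_015778.1:583261-684742 overlapped nothing and was at 92.9, 76.4 and 94.4 in LQ and 54.6, 55.3 and 56.2 in LW (0.66 ± 0.17, adjusted p = 0.047). Without LQ1 its adjusted p was 0.151. NC_015776.1:5325409-5556253 also overlapped nothing (0.97 ± 0.24, adjusted p = 0.045, and 0.132 without LQ4). It rose from MQ to LQ by 2.11 ± 0.24 (adjusted p = 3.29e-05).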

How the data were processed

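RNA from pooled whole larvae was sequenced as mRNA. The authors removed reads with uncalled bases, adapter sequence or low complexity, resampled the libraries to the smallest, and aligned them with PatMaN to Bter_1.0 with at most 1 mismatch, keeping reads that map to several places. Counts per feature were multiplied by 1000, divided by the length and quantile-normalised. The methods name the transcript length, while the lengths listed in the readable part of the supplement equal the span with introns, which was taken here as the length used. The deposited signal is this value. Depth is unknown after these steps, so no counting intervals are given. Strand use in counting is not given in the sources used here. The libraries MQ3, LQ3 and MW1 were not analysed here, and 0 columns of the table were left unused.

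Values were tested as log2(value + 0.1) with limma 3.58.1 (lmFit, eBayes with trend) in R 4.3.3, one mean for each of the 6 phenotypes over 17 libraries with 11 residual degrees of freedom. P-values were Benjamini-Hochberg adjusted over 14817 features, with a threshold of 0.05, and the script was tested on simulated data. Steps were read by sorting each library by value and following the row number (Python 3.11.15, pandas 2.3.3, numpy 2.4.6, scipy 1.17.1). Alternatives were offsets of 1 and 20, a mean of at least 5, median centring, no trend, values replaced by step means, blocks, and each library left out in turn. The sorting of calls by step, the offset of 20 with step means and the offset of 20 without LW1 were chosen after seeing the data.

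The members and lists were chosen with earlier results of these data known. Gene names came from the readable part of the study's supplement (names only), and lists from words in the product names. Features that the study merged as 1 gene were not merged here. Genes were drawn from those picked by this rule: in each comparison and direction, the 10 named genes with the largest change among those called, with a mean of at least 5 and groups apart, up to 5 by position without a name, the 5 of highest mean, up to 4 of each list, and 2 on each side of the limit of 100 kb. Not all genes it picks are described. One left out is protein FAM46C (LOC100644717), called higher from MQ to LQ by limma (0.66, adjusted p = 0.0286).

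Within a caste a number marks a colony, as the supplement's list of larvae per colony states, so stage comparisons are paired by colony. Deviations from group means correlated at 0.21 to 0.49 in the 7 queen-destined pairs, all above 0.1. In the 7 worker-destined pairs they correlated at -0.24 to 0.32, 3 of them above 0.1. Libraries of the same caste but different colonies correlated at -0.56 to 0.31, with 7 of 34 pairs above 0.1. Libraries of different castes, which share no colony, reached 0.41 with the same number (9 of 18 pairs above 0.1). With different numbers they reached 0.46 (17 of 54 pairs above 0.1).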

Additional observations from a re-analysis of the deposited data

Results flagged for a closer look

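Some long genes had differences of opposite sign in the groups compared, with every library of each group on its own side, and the difference between the effects was not tested in any of them. Values are log2 differences with offset 0.1, and most were not called by limma. Between castes, gene A had -1.47 in mid larvae (MQ against MW) and 1.10 in late larvae (LQ against LW), neither called. The same signs were found in NC_015770.1:7966825-8084601 (-1.22 and 0.72, neither called with offset 0.1), NC_015766.1:7065628-7173612 (-0.35 and 0.43, neither called) and NC_015764.1:13318610-13574765 (-0.55 and 0.52, neither called), in which a gene inside held 64.7% of the signal. NW_003566135.1:2064316-2201361 had -0.49 in mid larvae, not called, and 1.06 in late larvae, called (adjusted p = 0.0289). Gene E had 0.83 in mid and -1.23 in late larvae, neither called. Its LQ libraries and LW2 were all on step 1, where values are resolved only to the step, so its late separation was not resolved. Hormone receptor 4-like had 0.63 between EQ and EW, which was not called and bears on its being named, and -2.10 between LQ and LW, called as described above.

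Between early and mid larvae, NC_015762.1:7438844-7599338 had 0.53 from EQ to MQ, called (adjusted p = 0.0384), and -0.31 from EW to MW, not called, and features inside it held 107% of its signal. NC_015762.1:7446247-7597403, which lies inside it, had 0.51 and -0.61, neither called with offset 0.1, and a gene inside held 21.3%. This pair shares most of its span and is not 2 separate observations.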

How the results depend on the processing

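Counts of long genes called moved with several choices. Brackets give the share of the long genes against that of all features. With a mean of at least 5 required, 188 long genes were tested. There were 7 calls between MQ and MW (3.72% against 7.71%), 66 from MQ to LQ (35.1% against 39.5%) and 25 from MW to LW (13.3% against 25.4%). Offset 20 gave 17 between LQ and LW (4.38% against 4.55%). Without a trend in the prior there were 39 from EQ to MQ (10.1% against 16.4%) and 9 from EW to MW (2.32% against 2.76%). With colony as a replicate block 7 were called from EQ to MQ (1.8% against 4.7%), and that block moved no other stage count by over 1.5 times. The other counts were 158 from MQ to LQ (40.7% against 41.0%), 3 from EW to MW (0.773% against 2.46%) and 56 from MW to LW (14.4% against 27.7%). Between castes the numbers mark no shared colony. The block on them left 1 call between MQ and MW (0.258% against 1.9%) and 6 between LQ and LW (1.55% against 2.23%). Offset 20 with step means gave 115 from MQ to LQ (29.6% against 38.7%). Offset 20 without LW1 gave 17 between MQ and MW (4.38% against 10.3%) and 41 from EQ to MQ (10.6% against 21.8%). It gave 9 from EW to MW (2.32% against 4.89%) and 122 from MW to LW (31.4% against 33.3%). The cause was not tested in these cases.

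With each library left out in turn, the calls ran from 0 to 0 between EQ and EW, 0 to 19 between MQ and MW, 5 to 12 between LQ and LW, 8 to 49 from EQ to MQ, 103 to 194 from MQ to LQ, 2 to 13 from EW to MW and 9 to 156 from MW to LW. Ranges apart ran from 80 to 126 between EQ and EW, 146 to 208 between MQ and MW and 69 to 126 between LQ and LW, where fewer libraries make ranges easier to separate. These ranges were not counted over all features. Values on the low steps are resolved only to the step, so small differences among them were not detectable. For a gene on an unchanged step, a call from MQ to LQ cannot be told apart from the higher value of that step in LQ.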
